A study of Mus musculus with 20 samples.

Results

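Brachyury (T), Tbx6, mesogenin 1 (Msgn1) and Nkx1-2 are the 4 transcription factor genes described here, picked by name from the 54446 gene IDs of the deposited tables as genes of the tailbud and of the presomitic mesoderm. They were compared across 15 bulk RNA libraries of structures that had been made from mouse embryonic stem cells, with 3 libraries in each of 5 groups. Every group came from F1G4 cells with the same double reporter, T::H2B-mCherry/Sox2::H2B-Venus, so no group lacked the reporters, and whether the T reporter adds reads to T is not given in the sources used here. Every group had also received 3 µM CHIR99021, which inhibits the kinase GSK3 and so turns on WNT signalling, as a pulse beginning 48 h after aggregation. The 96h group was collected at that time, before any later treatment, from 10 pooled structures per library. The other groups were collected at 120 h from 6 pooled structures per library, all picked for an asymmetric pole. They were Gastruloid (no Matrigel), TLSMG (Matrigel, a gel of basement membrane proteins), TLSMGC (Matrigel and a further addition of CHIR99021) and TLSMGCL (the same with LDN, which blocks BMP receptors). The doses of the later CHIR99021 and of LDN are not given in the sources used here, and the 5 single-cell samples of the series were not analysed here.

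In the vertebrate tailbud a population of progenitors feeds both the spinal cord and the mesoderm that later forms somites. T is a T-box factor of the primitive streak, tailbud and notochord that is needed for posterior mesoderm and is a direct target of WNT signalling. Tbx6, another T-box factor, and Msgn1, a basic helix-loop-helix factor, mark the presomitic mesoderm, and loss of Tbx6 in the mouse turns presomitic tissue into neural tissue. Nkx1-2 is a homeobox factor of the caudal epiblast and the preneural tube, the side of the tailbud that stays close to the neural fate.

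The sequences just upstream of the 4 genes are shown because T, Tbx6 and Msgn1, but not Nkx1-2, were higher with added CHIR99021, and TCF/LEF factors carry the WNT signal to DNA. T (ENSMUSG00000062327.10) lies on mm10 at chr17:8434423-8442496 on the plus strand. Tbx6 (ENSMUSG00000030699.16) lies at chr7:126781483-126785560 on the plus strand. Msgn1 (ENSMUSG00000047002.2), a gene with 1 exon, lies at chr12:11208360-11208972 on the minus strand. Nkx1-2 (ENSMUSG00000048528.7), with 2 exons, lies at chr7:132594878-132599637 on the minus strand. The sequences are from RefSeq on GRCm38.p6, written 5′ to 3′ on each gene's own strand, with motif matches in capitals. They cover chr17:8434173-8434422 for T, chr7:126781233-126781482 for Tbx6, chr12:11208973-11209198 for Msgn1 and chr7:132599638-132599887 for Nkx1-2. For Msgn1 the RefSeq start is the start codon, and the 24 bases before it, which the deposited gene span already includes, are not printed.
T: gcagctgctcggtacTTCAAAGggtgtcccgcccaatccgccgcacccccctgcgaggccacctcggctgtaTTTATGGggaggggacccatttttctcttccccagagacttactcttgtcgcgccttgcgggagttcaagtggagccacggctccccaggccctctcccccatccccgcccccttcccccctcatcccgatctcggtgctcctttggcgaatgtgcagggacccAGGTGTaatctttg
Tbx6: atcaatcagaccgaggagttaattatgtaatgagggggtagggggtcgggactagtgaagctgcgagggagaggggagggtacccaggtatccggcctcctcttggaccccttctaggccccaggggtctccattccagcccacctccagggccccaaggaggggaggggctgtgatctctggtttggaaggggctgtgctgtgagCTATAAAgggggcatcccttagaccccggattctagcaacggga
Msgn1: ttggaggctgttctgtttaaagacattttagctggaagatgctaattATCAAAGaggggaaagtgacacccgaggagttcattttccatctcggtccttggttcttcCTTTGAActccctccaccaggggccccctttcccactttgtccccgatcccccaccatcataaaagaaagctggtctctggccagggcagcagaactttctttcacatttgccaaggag
Nkx1-2: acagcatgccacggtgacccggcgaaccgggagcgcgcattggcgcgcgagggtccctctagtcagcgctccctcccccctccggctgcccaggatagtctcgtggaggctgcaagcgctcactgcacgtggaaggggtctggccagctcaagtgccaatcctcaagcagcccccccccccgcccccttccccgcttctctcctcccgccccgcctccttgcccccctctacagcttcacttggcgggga
The motifs named next were searched on both strands in the 250 bases before the RefSeq start. The TCF/LEF letters were CTTTG followed by a pair of bases that are each A or T, which 14.8% of 32851 RefSeq mouse promoters hold in a window of that length. T held 1 match, at -235 to -229 from its start, and Msgn1 held 2, at -203 to -197 and at -143 to -137. Tbx6 and Nkx1-2 held none in this window. The T-box half-site core AGGTGT, held by 11.8% of promoters, matched once in T, at -14 to -9. The letters TTTATNG, a CDX motif held by 9.81% of promoters, matched once in T at -178 to -172 and once in Tbx6 at -44 to -38, where the match also contains TATAAA. A match is a description of the letters and no evidence of binding.

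**Figure D1:**
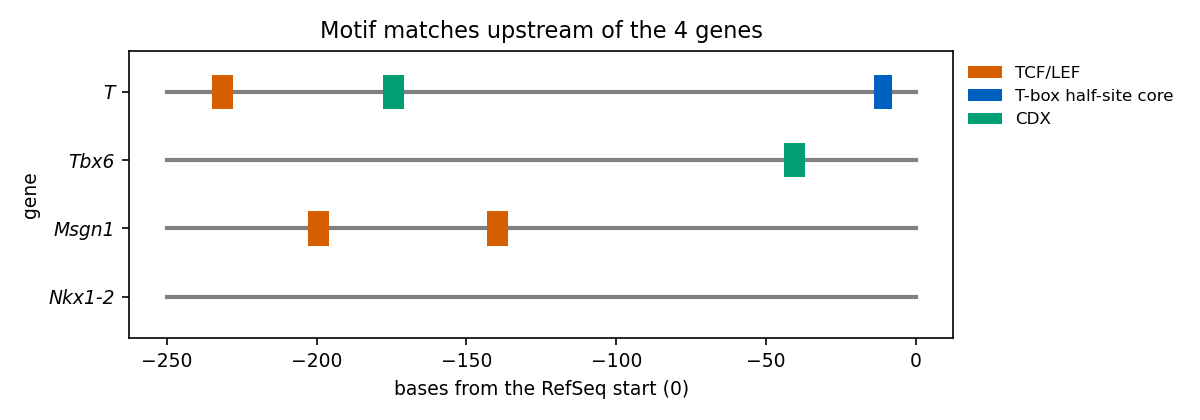
Matches to the 3 motifs in the 250 bases before the RefSeq start of each gene. The x axis is the distance from the start in bases, each row is a gene and each coloured block is a match on either strand. T has 3 blocks, Msgn1 has 2, Tbx6 has 1 and Nkx1-2 has none.

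The tables are abundance estimates in TPM (transcript abundance corrected for length and scaled to 1 total per library), so levels can be set side by side between genes. Relative depth (coverage divided by FPKM) ranged from 3.12 to 6.84, and 13688 to 14494 genes reached 1 TPM per library. No 2 libraries were identical. The notochord also makes T, and its defining gene Noto was at 0.362 TPM at 96h, at 0.0142 TPM in Gastruloid and listed at 0 in all TLSMG, TLSMGC and TLSMGCL libraries. The mean of Shh, another notochord gene, ran from 0.265 to 1.42 TPM over the groups, and that of Foxa2 from 2.53 to 5.31 TPM. Of 5 notochord and primitive streak genes tested as described below, 3 were called higher and 0 lower in TLSMGC than in TLSMG. Of all genes tested, 10.4% were called higher there. Fst and Nog had the largest of these list rises. Shh, which was not tested, had a mean of 0.626 TPM in TLSMGC against 1.42 TPM in TLSMG. Foxa2, tested and not called, had a mean of 2.73 TPM in TLSMGC against 4.14 TPM in TLSMG. The part of notochord cells in the level of T was not tested. Nkx1-2 overlaps the annotated Fgfr2 on its own strand and Gm16764 on the other, so its values are uncertain to the extent that reads were shared. The mean level of Fgfr2 ordered the groups differently, with 19.8 TPM at 96h, 32.2 in Gastruloid, 32.3 in TLSMG, 8.62 in TLSMGC and 8.27 in TLSMGCL. Gm16764, like Nkx1-2, was highest at 96h, with 11.2 TPM there. Its means were 2.74 TPM in Gastruloid, 2.30 in TLSMG, 3.51 in TLSMGC and 3.90 in TLSMGCL. The part of shared reads in the Nkx1-2 values was not tested. The related gene Nkx1-1 was at most 0.119 TPM in any library.

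At 96h all 4 genes were at their highest, and Tbx6 was the most abundant of them. Tbx6 measured 254, 349 and 365 TPM in the 3 libraries at 96h, which makes a mean of 323 ± 59.9 (SD, n = 3). In Gastruloid it measured 1.28, 3.66 and 3.72 TPM, and in TLSMG 6.16, 3.95 and 7.94 TPM. With added CHIR99021 it measured 60.6, 56.2 and 68.0 TPM in TLSMGC and 55.2, 61.9 and 54.2 TPM with LDN as well. The libraries thus fell into 3 tiers for Tbx6 with no overlap between them: 96h on top, the 6 libraries with added CHIR99021 below, and the 6 libraries of Gastruloid and TLSMG at the bottom. Of all genes tested, 13.6% were higher without overlap in TLSMGC than in TLSMG. The share of genes that form these 3 tiers was not computed.

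Msgn1 had the widest range of the 4. Its levels were 98.9, 138 and 172 TPM at 96h, and 35.9, 28.8 and 45 TPM in TLSMGC. In TLSMGCL they were 15.0, 17.0 and 14.2 TPM, and in TLSMG 0.892, 0.823 and 1.85 TPM. In Gastruloid, Msgn1 was listed at 0 in replicate 1 and measured 0.167 and 0.328 TPM in the others. None of these 5 sets of libraries overlapped with another. Of all genes tested, 39.4% were higher without overlap in TLSMG than in Gastruloid, and 10.3% lower without overlap in TLSMGCL than in TLSMGC. The share of genes separate over all 5 groups was not computed. The order for Msgn1 was therefore 96h, TLSMGC, TLSMGCL, TLSMG and Gastruloid, and each step between neighbours passed the test across all genes described below, although the steps from TLSMGC to TLSMGCL and from TLSMG to Gastruloid passed only under some settings.

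T measured 76.3, 120 and 134 TPM at 96h, a mean of 110 ± 30.1 (SD, n = 3). It measured 42.4, 42.1 and 48.3 TPM in TLSMGC and 32.3, 34.4 and 34.2 TPM in TLSMGCL. In TLSMG it measured 20.3, 16.7 and 19.4 TPM, and in Gastruloid 12.3, 19.5 and 20.6 TPM. The TLSMG values lay inside the Gastruloid range, and those 2 groups did not differ beyond their spread. The other groups were separate in TPM, although the step from TLSMGC to TLSMGCL did not pass the test. That step was downward without overlap for 10.3% of all genes tested.

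Nkx1-2 measured 84.1, 141 and 184 TPM at 96h, a mean of 136 ± 50.3 (SD, n = 3). At 120 h it measured 23.6, 49.0 and 48.3 TPM in Gastruloid and 50.4, 44.5 and 58.1 TPM in TLSMG. With added CHIR99021 it measured 42.5, 41.5 and 63.4 TPM, and with LDN as well 71.3, 74.7 and 61.3 TPM. The Gastruloid, TLSMG and TLSMGC libraries overlapped. TLSMGCL overlapped TLSMGC, with its lowest library at 61.3 TPM and the highest of TLSMGC at 63.4 TPM, and lay above Gastruloid and TLSMG. By mean, the order was 96h, TLSMGCL, TLSMG, TLSMGC and Gastruloid, and below 96h no step between neighbours passed the test.

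**Figure D2:**
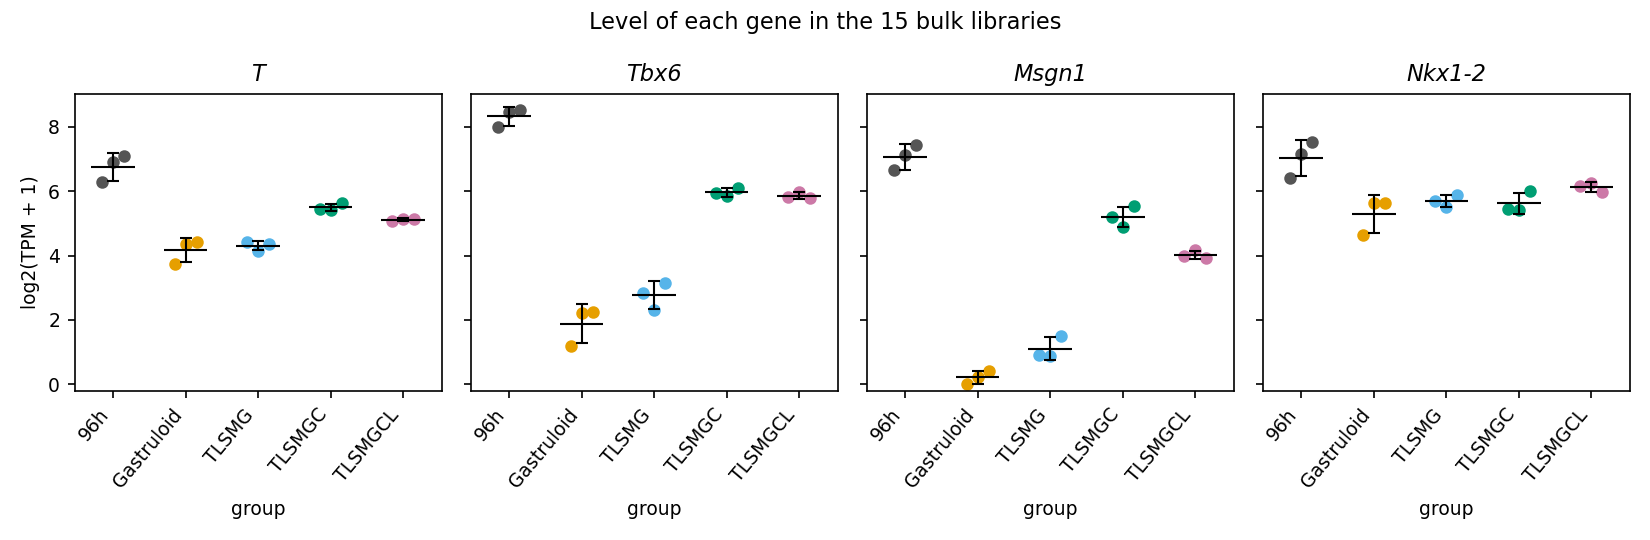
Level of each gene in every library, as log2(TPM + 1) on the y axis, by group on the x axis. Points are libraries, the wide line is the group mean and the bars are 1 SD over 3 libraries. Tbx6 and Msgn1 fall furthest in Gastruloid and TLSMG and stand higher in TLSMGC and TLSMGCL. The Nkx1-2 libraries of Gastruloid, TLSMG and TLSMGC overlap, and those of TLSMGCL overlap TLSMGC.

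Within a group the 4 genes tended to be low in the same library. Replicate 1 was lowest for all 4 at 96h and in Gastruloid, and replicate 2 was lowest for all 4 in TLSMG and in TLSMGC. In TLSMGCL, replicate 3 was lowest for 3 of the 4 genes. The summed TPM of 12 presomitic and segmentation genes and that of 14 caudal epiblast and tailbud genes were lowest in those same libraries of the 5 groups. At 96h the caudal sum ran from 586 TPM in replicate 1 to 931 TPM in replicate 3, and the presomitic sum from 2058 to 2181 TPM. Relative depth was 4.32 and 4.74 in the low libraries of 96h and TLSMGC, the highest of their groups, and 3.28, 3.78 and 3.18 in those of Gastruloid, TLSMG and TLSMGCL, the lowest of theirs. In pooled bulk samples, fewer cells of a type and less RNA per cell cannot be told apart.

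From 96 h to 120 h all 4 genes fell in every group, but by very different amounts. Without added CHIR99021, the presomitic genes Tbx6 and Msgn1 fell to a very small share of their level at 96h, while T and Nkx1-2 kept more of theirs. The mean of Tbx6 was 0.893% of its 96h mean in Gastruloid and 1.86% in TLSMG. Msgn1 in TLSMG was at 0.873% of its 96h mean. T stood at 15.9% and 17.1% of its 96h mean in Gastruloid and TLSMG, and Nkx1-2 at 29.6% and 37.4%. In TLSMGC the remaining levels were 40.2% for T, 19.1% for Tbx6, 26.8% for Msgn1 and 36.0% for Nkx1-2. In TLSMGCL they were 30.5% for T, 17.7% for Tbx6, 11.3% for Msgn1 and 50.6% for Nkx1-2.

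The test was limma's moderated test on log2(TPM + 1) over 14290 genes with a mean of at least 1 TPM, with Benjamini-Hochberg adjustment. In Gastruloid against 96h all 4 genes passed as lower, where 20.5% of all genes tested did so (16.6% on the FPKM scale, which moves the split of higher and lower genes). Msgn1 differed by -6.85 (95% confidence interval -7.32 to -6.38, adjusted p = 5.38e-11) and Tbx6 by -6.44 (-7.00 to -5.88, adjusted p = 4.87e-10). T differed by -2.58 (-3.00 to -2.16, adjusted p = 2.19e-07) and Nkx1-2 by -1.73 (-2.36 to -1.11, adjusted p = 0.000343). The intervals of the pair Tbx6 and Msgn1 lay wholly below those of T and Nkx1-2. Because Msgn1 was near 0 in Gastruloid, the size of its difference depends on the added constant, and it was -9.20 when 0.1 TPM was added in place of 1 TPM.

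In TLSMG against 96h, again all 4 genes passed as lower, where 12.5% of genes did so. The differences were -5.97 for Msgn1 (adjusted p = 2.39e-10), -5.55 for Tbx6 (adjusted p = 1.96e-09), -2.45 for T (adjusted p = 3.25e-07) and -1.34 for Nkx1-2 (adjusted p = 0.00202). The median of all genes tested was 0.14 here, and median-of-ratios scaling brought it to -0.01 and the share of genes called lower to 23.1%. All 4 genes stayed lower under that scaling.

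Markers of other cell types moved with the fall. Of 7 neural genes tested, 6 were higher in Gastruloid and 6 in TLSMG than at 96h, and the summed TPM of 8 neural genes was 65.2 to 88.2 at 96h, 383 to 520 in Gastruloid and 203 to 305 in TLSMG. Of 8 endothelial genes, 6 were higher in Gastruloid and all 8 in TLSMG, with a summed TPM of 8.84 to 12.0 at 96h, 33.7 to 44.2 in Gastruloid and 260 to 315 in TLSMG. Over all genes tested, 20.8% were higher in Gastruloid and 33.5% in TLSMG (22.4% under median-of-ratios scaling). In TLSMGC the neural sum was 54.6 to 72 TPM and in TLSMGCL 69 to 85.1 TPM, which overlapped 96h, while the endothelial sum was 24.2 to 78.9 and 11.9 to 19.7 TPM. The part of these cell types in the fall of the 4 genes was not tested.

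With added CHIR99021 the fall since 96h was smaller than in TLSMG for T as well as for the presomitic genes Tbx6 and Msgn1. In TLSMGC against 96h, where 20.1% of all genes were called lower, Tbx6 differed by -2.36 (adjusted p = 9.52e-06) and Msgn1 by -1.86 (adjusted p = 1.69e-05). T differed by -1.26 (adjusted p = 0.000178) and Nkx1-2 by -1.41 (adjusted p = 0.00164). In TLSMGCL against 96h, where 22.1% were called lower, the differences were -2.46 for Tbx6 (adjusted p = 6.37e-06), -3.04 for Msgn1 (adjusted p = 1.50e-07) and -1.64 for T (adjusted p = 1.88e-05). For Nkx1-2 it was -0.90 (adjusted p = 0.0242). That call for Nkx1-2 was lost without 96h replicate 2 (-0.85, adjusted p = 0.0712), without 96h replicate 3 (-0.65, adjusted p = 0.111) and without TLSMGCL replicate 3 (-0.82, adjusted p = 0.0761), and also with no filter on low values (adjusted p = 0.0605). These 4 comparisons share the 3 libraries at 96h, so their values stand side by side and are not independent.

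**Figure D3:**
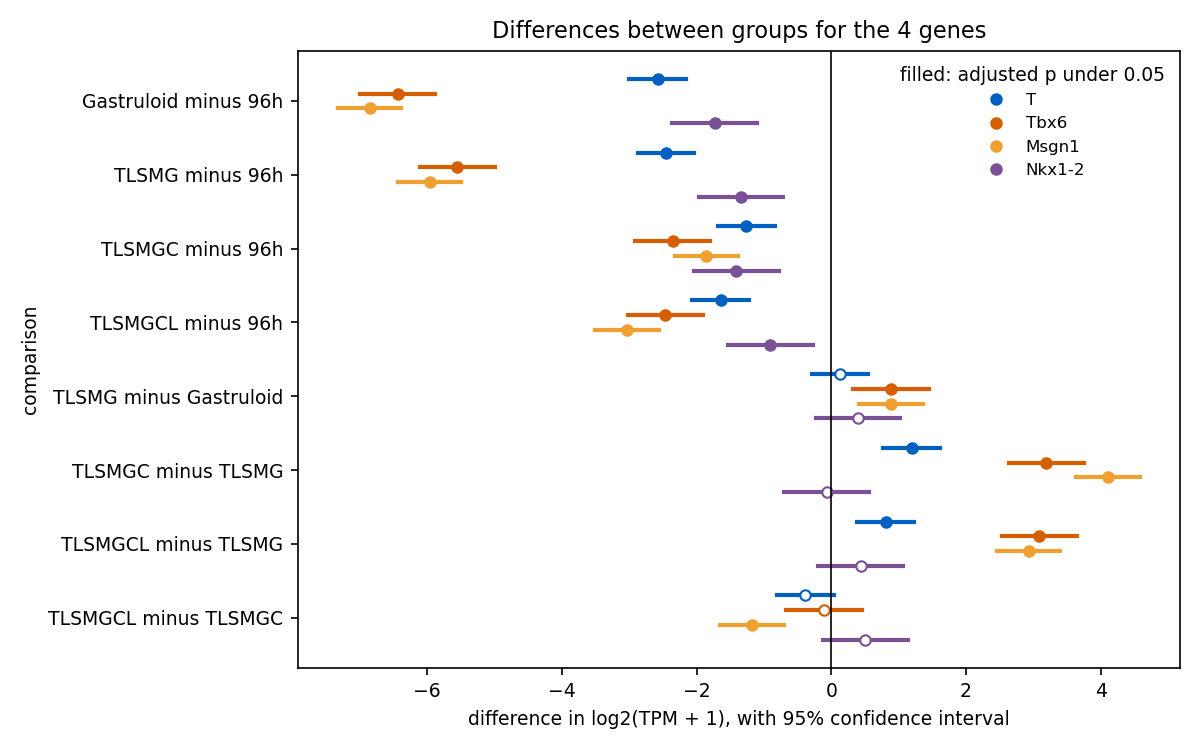
Difference between groups in log2(TPM + 1) on the x axis for 8 comparisons on the y axis, with 95% confidence intervals from limma. Filled points have an adjusted p under 0.05. Nkx1-2 crosses 0 in the last 4 comparisons, while Msgn1 differs in all 8.

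Matrigel alone was compared with Gastruloid at 120 h. Msgn1 and Tbx6 were higher in TLSMG, though both stayed below 2% of their 96h means, and T and Nkx1-2 did not pass the test. All 3 TLSMG libraries exceeded all 3 Gastruloid libraries for both Msgn1 and Tbx6, as was so for 39.4% of all genes tested. Msgn1 differed by 0.89 (0.42 to 1.36, adjusted p = 0.00623 by limma) and Tbx6 by 0.89 (0.33 to 1.45, adjusted p = 0.0158), where 31.5% of all genes were called higher (19.3% under median-of-ratios scaling). T differed by 0.13 (-0.29 to 0.55, adjusted p = 0.633), a sign that turned under that scaling (-0.03), on the FPKM scale (-0.04) and without Gastruloid replicate 1 (-0.09). Nkx1-2 differed by 0.39 (-0.23 to 1.02, adjusted p = 0.302).

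The calls for these low levels were not firm. For Tbx6 the call was lost without Gastruloid replicate 1 (0.54, adjusted p = 0.0655) and without TLSMG replicate 3 (0.69, adjusted p = 0.0744). For Msgn1 it was lost on the FPKM scale (0.50, adjusted p = 0.0631), and its size rose to 2.43 with 0.1 TPM added in place of 1 TPM. The median of all genes was 0.13 in this comparison and -0.02 after median-of-ratios scaling, under which Tbx6 differed by 0.75 and Msgn1 by 0.81. Endothelial genes moved with Matrigel: 7 of 8 were higher, where 31.5% of all genes were. Their summed TPM was 260 to 315 in TLSMG against 33.7 to 44.2 in Gastruloid. The summed TPM of 8 neural genes was 203 to 305 in TLSMG against 383 to 520 in Gastruloid. The part of these cell types in the result was not tested.

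Added CHIR99021 in Matrigel raised Msgn1, Tbx6 and T, in that order of size, and left Nkx1-2 within its spread. All 3 TLSMGC libraries exceeded all 3 TLSMG libraries for Msgn1, Tbx6 and T, as was so for 13.6% of all genes tested. Msgn1 went from a mean of 1.19 ± 0.575 TPM to 36.6 ± 8.15 TPM (SD, n = 3 each). Tbx6 went from 6.02 ± 2.00 to 61.6 ± 5.96 TPM, and T from 18.8 ± 1.88 to 44.3 ± 3.49 TPM. Nkx1-2 had means of 51.0 ± 6.87 TPM without and 49.1 ± 12.4 TPM with the addition.

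By limma, Msgn1 differed by 4.11 (3.64 to 4.58, adjusted p = 1.57e-08), Tbx6 by 3.19 (2.63 to 3.75, adjusted p = 7.69e-07) and T by 1.19 (0.77 to 1.61, adjusted p = 0.000321). These 3 of the 4 genes were called higher where 10.4% of all genes were (18.3% under median-of-ratios scaling). Nkx1-2 differed by -0.07 (-0.70 to 0.56, adjusted p = 0.863). Its sign turned under median-of-ratios scaling (0.09), on the FPKM scale (0.04) and when TLSMG replicate 3 (0.03), TLSMGC replicate 1 (0.02) or TLSMGC replicate 2 (0.04) was left out. The median of all genes was -0.16 and moved to -0.01 after that scaling, under which Msgn1, Tbx6 and T differed by 4.20, 3.33 and 1.35.

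Against Gastruloid, which lacked both Matrigel and the addition, TLSMGC showed the same 3 genes higher, where 21.0% of all genes were called higher. The differences were 5.00 for Msgn1 (adjusted p = 2.00e-09), 4.08 for Tbx6 (adjusted p = 7.11e-08) and 1.32 for T (adjusted p = 0.000129). For Nkx1-2 the difference was 0.32 (-0.30 to 0.95, adjusted p = 0.399), and it was -0.01 without Gastruloid replicate 1. This comparison shares TLSMGC with the one above.

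Other cell type markers moved with the addition. All 8 endothelial genes were lower in TLSMGC than in TLSMG, with a summed TPM of 24.2 to 78.9 against 260 to 315, and 6 of 7 neural genes tested were lower, where 30.5% of all genes were. The summed TPM of the 8 neural genes was 54.6 to 72.0 in TLSMGC against 203 to 305 in TLSMG, and Pax6, a defining neural gene, was at 0.139 TPM in TLSMGC. Sox2, a neural and progenitor factor, had a mean of 26.9 TPM in TLSMGC against 80.6 TPM in TLSMG (-1.54, adjusted p = 1.02e-05 by limma). The part of these cell types in the rise of Msgn1, Tbx6 and T was not tested.

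LDN added on top of CHIR99021 lowered Msgn1 and none of the other 3 by the test. Msgn1 had a mean of 15.4 ± 1.45 TPM in TLSMGCL against 36.6 ± 8.15 TPM in TLSMGC (SD, n = 3 each), with no overlap, as was so in this direction for 10.3% of all genes tested. T was also lower without overlap. Tbx6, its close companion in the other comparisons, was at 57.1 ± 4.20 against 61.6 ± 5.96 TPM. T was at 33.6 ± 1.12 against 44.3 ± 3.49 TPM, and Nkx1-2 at 69.1 ± 6.98 against 49.1 ± 12.4 TPM.

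By limma, Msgn1 differed by -1.18 (-1.65 to -0.71, adjusted p = 0.0194), where only 0.777% of all genes were called lower (0.693% under median-of-ratios scaling, and 0.721% higher against 0.406%). The other differences were -0.38 for T (-0.80 to 0.04, adjusted p = 0.440), -0.11 for Tbx6 (-0.67 to 0.45, adjusted p = 0.910) and 0.51 for Nkx1-2 (-0.12 to 1.13, adjusted p = 0.519). The Msgn1 call was lost with 0.1 TPM added (-1.22, adjusted p = 0.215), with no filter on low values (-1.18, adjusted p = 0.0530), and when TLSMGC replicate 1 (-1.18, adjusted p = 0.0590), TLSMGC replicate 3 (-1.02, adjusted p = 0.0558), TLSMGCL replicate 1 (-1.16, adjusted p = 0.0741) or TLSMGCL replicate 3 (-1.12, adjusted p = 0.0781) was left out. Its size stayed between -1.22 and -1.02 in all of these. Endothelial genes moved with LDN: 3 of 8 were lower, among them Cldn5 (-1.47, adjusted p = 0.0116) and Tek (-1.34, adjusted p = 0.0393), and their summed TPM was 11.9 to 19.7 in TLSMGCL against 24.2 to 78.9 in TLSMGC. Their part in the Msgn1 difference was not tested. Few genes passed here at all: 169 over both directions. The count was 114, 56 and 198 without TLSMGC replicate 1, 2 and 3 in turn. It was 70, 123 and 78 without TLSMGCL replicate 1, 2 and 3 in turn.

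Compared with TLSMG, the libraries with both compounds kept the higher levels of 3 genes, where 9.31% of all genes were called higher (19.1% under median-of-ratios scaling). Tbx6 differed by 3.09 (adjusted p = 8.38e-07 by limma), Msgn1 by 2.93 (adjusted p = 2.94e-07) and T by 0.81 (adjusted p = 0.00439). Nkx1-2 differed by 0.43 (-0.19 to 1.06, adjusted p = 0.244), and passed only when the 2 groups were fitted alone (adjusted p = 0.0243). The median of all genes was -0.18 here. Against Gastruloid, where 15.0% of all genes were called higher, TLSMGCL was higher for all 4 genes, by 3.98 for Tbx6 (adjusted p = 1.06e-07), 3.82 for Msgn1 (adjusted p = 3.09e-08), 0.94 for T (adjusted p = 0.00203) and 0.83 for Nkx1-2 (adjusted p = 0.0397). The Nkx1-2 call was lost without Gastruloid replicate 1 (0.49, adjusted p = 0.186), without any 1 of the TLSMGCL libraries (0.77 to 0.91, adjusted p from 0.0583 to 0.0923) and under 3 other settings.

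Ratios taken within a library compare the genes with each other and do not depend on library scaling apart from the 1 TPM added. At 96h there was more Tbx6 than T in every library, and in Gastruloid and TLSMG there was less. The log2 ratio of Tbx6 to T averaged 1.57 at 96h, -2.30 in Gastruloid, -1.54 in TLSMG, 0.47 in TLSMGC and 0.74 in TLSMGCL. The log2 ratio of Nkx1-2 to T averaged 0.27, 1.12, 1.39, 0.12 and 1.01 in the same order of groups. It was lowest in TLSMGC and at 96h and highest in TLSMG, and TLSMGCL, though it had added CHIR99021, overlapped Gastruloid.

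The 6 Matrigel libraries with added CHIR99021, with or without LDN, were compared with the 3 without by an exact two-sided permutation test, whose smallest possible p is 0.0238. The 6 libraries are of 2 treatments, 3 each of TLSMGC and TLSMGCL, and so are not replicates of 1 condition. The 4 ratios were adjusted together, and the 3 ratios to T share T and are not independent. Tbx6 to T was 0.61 ± 0.17 (SD, n = 6) against -1.54 ± 0.33 (SD, n = 3), a difference of 2.14 (exact p = 0.0238, adjusted p = 0.0317). Msgn1 to T was -0.69 ± 0.46 against -3.21 ± 0.33, a difference of 2.52 with the same exact p. Nkx1-2 to T was 0.57 ± 0.52 against 1.39 ± 0.14, a difference of -0.82, again with the same exact p. So Tbx6 and Msgn1 were higher relative to T with the addition, in all 6 libraries against all 3. Nkx1-2 was lower relative to T in all 6 as well, but most of that difference came from TLSMGC, with a mean of 0.12, and less from TLSMGCL, with a mean of 1.01.

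Msgn1 to Tbx6, the ratio between the presomitic factors, did not pass (-1.29 ± 0.60 against -1.67 ± 0.24, exact p = 0.405). With 0.1 TPM added in place of 1 TPM its difference was 0.95 (exact p = 0.0238), so it depends on how the low Msgn1 values of TLSMG are treated. LDN separated this ratio within the treated libraries, at -0.76 in TLSMGC and -1.83 in TLSMGCL without overlap, while Nkx1-2 to T was 0.12 and 1.01. With 3 libraries against 3 the smallest exact two-sided p is 0.1, which each of the 4 ratios reached, so this design cannot pass the threshold.

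**Figure D4:**
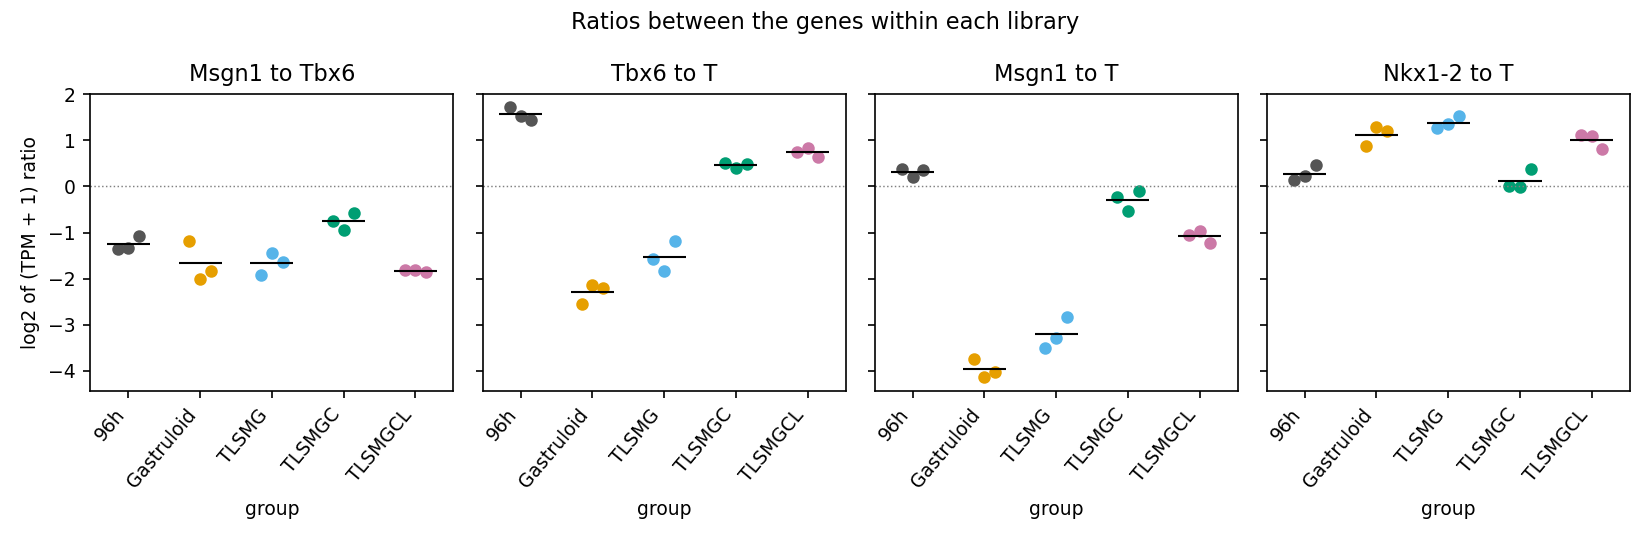
Log2 ratio between pairs of the genes within each library, after adding 1 TPM, on the y axis, by group on the x axis. Points are libraries and lines are means of 3. Tbx6 to T and Msgn1 to T fall in Gastruloid and TLSMG, Nkx1-2 to T is lowest at 96h and in TLSMGC, and Msgn1 to Tbx6 stands apart in TLSMGC.

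Over the 15 libraries, the genes whose pattern was most like each of the 4 were found by the root mean square difference of log2(TPM + 1) after centring each gene on its mean. Tbx6 and Msgn1 were each other's nearest gene of 14290, at 0.44, against a median over genes of 2.4 for Tbx6 and 2.60 for Msgn1. Next for Tbx6 came Mesp1 (0.72), a factor of nascent mesoderm, and Cdx1 (0.84), a caudal homeobox factor. For Msgn1 the next were Cdx1 (0.83) and Mesp1 (1.03). T lay nearest to Vwa2 (0.21), Cbr3 (0.22) and Nrarp (0.25), the last a feedback regulator of Notch signalling, against a median of 1.02. Nkx1-2 lay nearest to Fgf8 (0.29), a growth factor of the tailbud, then to its overlapping antisense neighbour Gm16764 (0.34) and Tmem229a (0.34), against a median of 0.74. These are descriptions over libraries that share groups, and a gene that varies little has small differences from many others.

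Most other genes of the presomitic programme fell with Tbx6 and Msgn1 after 96 h, and not all were higher at 120 h with added CHIR99021 than without it. Of 12 presomitic and segmentation genes, 11 were lower and 0 higher in each of the 4 groups at 120 h than at 96h, with a median difference of -3.24 in TLSMG, where the median of all genes was 0.14. Of all genes tested, 20.5% were lower in Gastruloid, 12.5% in TLSMG, 20.1% in TLSMGC and 22.1% in TLSMGCL. In TLSMGC against TLSMG, 6 of the 12 were higher and 0 lower, where 10.4% of all genes were higher. Their median was 0.34 against -0.16 for all genes. Hes7, the oscillating repressor of the segmentation clock, was higher by 1.61 (adjusted p = 0.000190 by limma), at 37.9 against 11.7 TPM. Dll1, a Notch ligand that is a known target of Tbx6, was higher by 1.02 (adjusted p = 1.88e-05), and Cited1 by 2.06 (adjusted p = 1.33e-07). Mesp2 and Ripply2, genes of the anterior presomitic mesoderm where segments are set and also known targets of Tbx6, stood at 6.64 against 7.18 TPM (-0.07, adjusted p = 0.842) and at 3.68 against 5.56 TPM (-0.43, adjusted p = 0.324). At 96h they had been at 131 and 184 TPM.

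In TLSMG against Gastruloid, 7 of the 12 presomitic genes were called higher and 0 lower, where 31.5% of all genes were called higher. Only 1 was higher and 1 lower under median-of-ratios scaling and on the FPKM scale, so that pattern rests on the scaling. LDN changed 1 of the 12, Cited1, which had a mean of 39.7 TPM in TLSMGCL against 80.9 TPM in TLSMGC (adjusted p = 0.00302 by limma). Of all genes tested, 0.777% were lower with LDN. Nog, a secreted BMP antagonist, was lower with LDN as well, at 1.84 against 7.41 TPM (-1.57, adjusted p = 5.74e-05). Aldh1a2, the retinoic acid-making enzyme of somitic mesoderm, was higher with LDN, at 237 against 135 TPM (0.82, adjusted p = 0.00556).

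Among 13 caudal epiblast and tailbud genes tested, 5 were higher and 3 lower in TLSMGC than in TLSMG, where 10.4% and 30.5% of all genes were, with a median of 0.24. Cdx1 showed the largest rise, from 3.32 to 152 TPM (5.12, adjusted p = 6.18e-10 by limma), and Evx1, a homeobox factor of the posterior streak, rose by 1.81 (adjusted p = 1.05e-05). Wnt3a, a WNT ligand of the tailbud, rose by 0.59 (adjusted p = 0.00960) but stayed at 3.86 TPM against 34.1 TPM at 96h. The other WNT ligands of this list were split by mean. Wnt5b was higher, at 15.4 TPM in TLSMGC against 9.18 TPM in TLSMG, while Wnt5a and Wnt8a were lower. Wnt5a had a mean of 13.5 TPM in TLSMGC against 44.2 TPM in TLSMG, and Wnt8a 0.874 against 2.77 TPM. Fgf8, the nearest gene to Nkx1-2, was at 30.1 against 25.6 TPM (0.24, adjusted p = 0.257). Cdx2 was at 93.5 against 73.2 TPM (0.35, adjusted p = 0.191) and Cdx4 at 16.9 against 18 TPM (-0.11, adjusted p = 0.770), so the 3 Cdx genes did not move alike. Of the 13, 10 were lower and 1 higher in TLSMG than at 96h, where 12.5% of all genes were lower. The higher one was Cdx4, at 5.11 TPM at 96h and 18 TPM in TLSMG (1.68, adjusted p = 0.000226).

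Genes that report WNT signalling were higher in TLSMGC than in TLSMG in 10 of 11 cases and lower in 0, where 10.4% of all genes were higher (18.3% under median-of-ratios scaling), with a median of 1.50. Sp5, a transcription factor induced by WNT, was at 177 against 7.20 TPM (4.44, adjusted p = 8.75e-10 by limma) and Notum, a secreted WNT inhibitor, at 67.0 against 2.38 TPM (4.34, adjusted p = 1.62e-09). Compared with 96h, 7 of the 11 were higher in TLSMGC, where 20.6% of all genes were, and 1 was lower, while T, Tbx6 and Msgn1 were all lower. Lef1, a TCF/LEF factor, was the 1 lower gene (-1.63, adjusted p = 2.28e-07). LDN lowered 1 of the 11, Tcf7, by a small amount (-0.37, adjusted p = 0.0399), where 0.777% of all genes were lower.

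**Figure D5:**
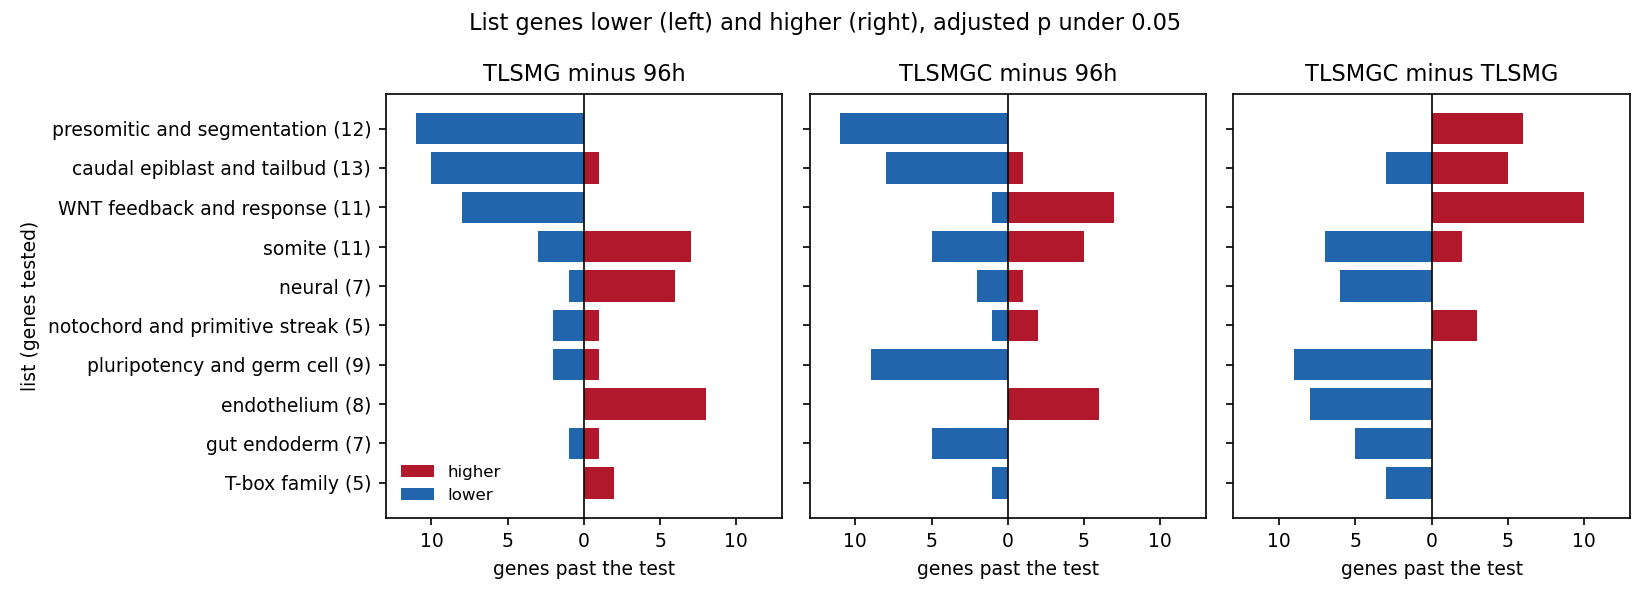
Number of genes of each list called lower (left of 0) or higher (right of 0) by limma at an adjusted p under 0.05, in 3 comparisons, with the number tested beside each list name. Presomitic genes are lower than at 96h in TLSMG and in TLSMGC (11 of 12 each, against 12.5% and 20.1% of all genes). WNT genes are higher in TLSMGC than in TLSMG (10 of 11, against 10.4% of all genes). The comparisons share libraries.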

How the data were processed

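The deposited TPM values came from StringTie gene abundance tables, 1 for each of the 15 bulk libraries, per the file headers, and sum to 1000000 per table. The deposited FPKM values and the deposited coverage (signal) values are further columns of these tables and served for an alternative scale and for relative depth. The submitters' processing notes name cutadapt 2.4, STAR 2.7.3a, StringTie 2.0 and mm10, and the labels describe stranded libraries of polyadenylated RNA. Lines of 1 gene ID were summed. Of 54446 gene IDs, 53229 have the same versioned ID and span in GENCODE M21. The tables hold estimates and no read counts, so intervals and floors for counting error were not computed, and a listed 0 can be a failed estimate.

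Genes with a mean of at least 1 TPM (14290) were tested on log2(TPM + 1) with limma (version 3.58.1, under R version 4.3.3), in 1 fit of 5 group means with a trend in the prior variance, for 10 comparisons, two-sided with Benjamini-Hochberg adjustment within each and a threshold of 0.05. Differences on this scale understate changes of low genes. Ratios between the 4 genes were tested by exact permutation in Python 3.11.15 with scipy 1.17.1. The scripts were tested on simulated data with 200 changed genes. The labels call the 3 libraries of a group biological replicates. The 4 genes and the 10 gene lists (104 genes) were chosen with earlier results of these data known. Named genes are the 4, the 3 genes most like each, up to 2 genes with the largest called differences per list and comparison, and 10 partner genes. Lef1, Pax6, Noto, Shh, Foxa2, Wnt5b and the genes overlapping Nkx1-2 are also named, as checks. The alternatives were a pseudocount of 0.1, no filter, a filter of 5 TPM, median-of-ratios scaling, FPKM, fits of 2 groups alone, a replicate block and leaving out each library. The 5 single-cell samples were not analysed here.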

Additional observations from a re-analysis of the deposited data

How the results depend on the processing

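Of 44 results (the 4 genes in 10 comparisons and 4 ratios), 31 kept their direction and their side of the threshold under every alternative run, among them every fall of T, Tbx6 and Msgn1 since 96h and every rise of these 3 with added CHIR99021 in Matrigel.

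The other 13 lay near the threshold or near 0, and the cause was not tested. With no filter, Nkx1-2 in TLSMGCL was -0.90 against 96h and 0.83 against Gastruloid, and Msgn1 with LDN was -1.18, none of them past the threshold. With a pseudocount of 0.1, Msgn1 with LDN was -1.22 and did not pass, and the ratio of Msgn1 to Tbx6 was 0.95 and did. Under median-of-ratios scaling the signs turned for T in TLSMG against Gastruloid (-0.03) and Nkx1-2 in TLSMGC against TLSMG (0.09), and on the FPKM scale likewise (-0.04 and 0.04). On the FPKM scale Msgn1 in TLSMG against Gastruloid was 0.50 and Nkx1-2 in TLSMGCL against Gastruloid 0.77, neither past the threshold. Fitting only the 2 groups compared left Tbx6 in TLSMG against Gastruloid at 0.89 and Nkx1-2 in TLSMGCL against Gastruloid at 0.83, both no longer past it, put Nkx1-2 in TLSMGCL against TLSMG past it at 0.43, and gave 42 in place of 169 called genes for LDN.

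Leaving out 1 library gave -1.21 to -0.65 for Nkx1-2 in TLSMGCL against 96h, -0.09 to 0.26 for T and 0.54 to 1.12 for Tbx6 in TLSMG against Gastruloid, -0.27 to 0.04 for Nkx1-2 in TLSMGC against TLSMG, -1.33 to -1.02 for Msgn1 with LDN, and -0.01 to 0.50 and 0.49 to 1.00 for Nkx1-2 in TLSMGC and TLSMGCL against Gastruloid. The ratios to T were 1.99 to 2.31 for Tbx6, -0.93 to -0.70 for Nkx1-2 and 2.37 to 2.7 for Msgn1, and they could not pass without a TLSMG library, where the smallest exact adjusted p was 0.0952. With the replicate block their differences were 2.14, -0.82 and 2.52 at an exact adjusted p of 0.0988, the smallest that design allows. Same-numbered libraries did not deviate together (correlations of -0.18 to 0.10 over 30 pairs), so the numbers were not taken as pairs, and the block changed no other call. Depth per gene is unknown, which limits what can be said of Msgn1 below 1 TPM.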
